A study of Mus musculus with 8 samples.

Results

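The Ugt genes encode UDP-glucuronosyltransferases, and 10 of them were followed in mouse liver tumors: Ugt1a1, Ugt1a6a, Ugt2a3, Ugt2b1, Ugt2b5, Ugt2b34, Ugt2b35, Ugt2b36, Ugt3a1 and Ugt3a2. They were found on the arrays through the accession of each probe, and 9 of the 10 had a probe, among 55681 probes in all. Ugt1a1 had none and was not analysed here. All 9 passed the filter on dim probes, as did 14312 genes of the whole array.

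RNA of 8 hepatocellular carcinomas from male miR-122 KO mice was compared with RNA of livers from age-matched males carrying the floxed, undeleted gene, which the growth protocol calls WT. The genetic background of both was a mix of C57BL/6J and 129S/Svj. Each of 8 arrays on 1 slide held 1 tumor in the red dye Cy5 and control liver in the green dye Cy3, with no dye swap. There was no tumor-free liver without miR-122, so the deletion, the tumor and the dye cannot be told apart. The labels do not say how or in which cells the gene was deleted, what age the mice had, whether tumors shared a mouse, or whether the control RNA came from separate animals or a pool.

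UDP-glucuronosyltransferases sit in the membrane of the endoplasmic reticulum and transfer the sugar of a UDP-sugar onto small fat-soluble molecules, which can then leave in bile or urine. Most use UDP-glucuronate, and their substrates include bilirubin, steroids, bile acids, thyroid hormone and many drugs. The liver is a main site of this reaction. The Ugt1a genes are made by splicing separate first exons to shared last exons, whereas the Ugt2 genes are separate genes in a cluster, and the Ugt3 enzymes use other sugars.

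The share of probes well above background was 38.5% to 51.9% in the tumor channel and 45.1% to 54.3% in the control channel, and no spot was saturated. Array 8 stood apart: its upper quartile of the red signal was 213, against 378 to 606 on the others, and its ratios correlated with those of the other arrays at a mean r of 0.528 across genes, against 0.629 to 0.740. Its control channel held all 26 skeletal muscle markers well above background, with a summed signal of 130902, against 2408 to 3251 in the controls of arrays 1 to 7, and its tumor channel held 15 of the 26. The control channels of arrays 1 and 2 deviated from the mean together (r = 0.691), against r of -0.453 to 0.224 for the other pairs of arrays, and may hold the same RNA. The results below are therefore also given without array 8 where that changes a call.

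Of the 9 measured Ugt genes, 5 were lower in tumors: Ugt2b1, Ugt3a1, Ugt2a3, Ugt3a2 and Ugt2b36. The falls ran from 2.05-fold for Ugt2b36 to 19.6-fold for Ugt2b1. None was higher, and Ugt2b5, Ugt2b34, Ugt2b35 and Ugt1a6a were not called in either direction. A gene was called at a limma adjusted p under 0.05, adjusted by Benjamini-Hochberg over all genes, and a change of at least 2-fold, that is a log2 ratio of at least 1 in size. Over all genes tested, 5.94% were called lower and 9.54% higher. The same 5 genes were below 0 on all 8 arrays, where 16.6% of all genes were. In each of these 5 the highest tumor signal lay below the lowest control signal, as in 8.47% of all genes. The median log2 ratio was -1.03 over the 9 genes and 0.03 over all genes. These are bulk samples, so fewer cells that make an RNA and less of that RNA per cell cannot be told apart.

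**Figure D1:**
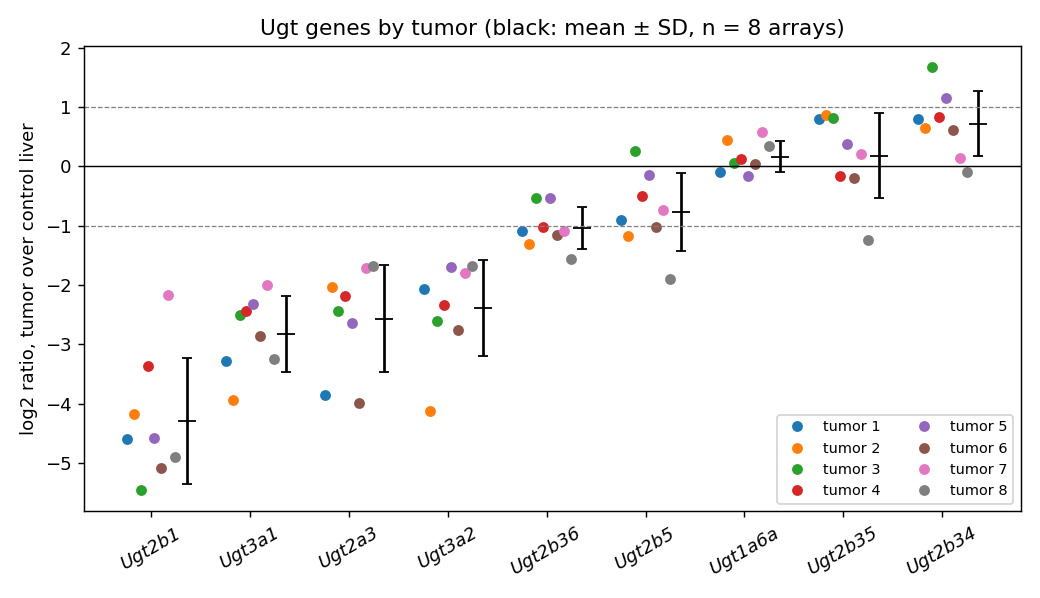
Log2 ratio of tumor over control liver (y axis) for the 9 measured Ugt genes (x axis), with a coloured point for each of the 8 tumors, the mean ± SD in black and dashed lines at the 2-fold limits. Points of Ugt2b1 run from -5.45 to -2.17 and those of Ugt2b34 from -0.09 to 1.68.

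Ugt2b1 is a Ugt2b gene of liver whose rat counterpart conjugates bisphenol A. Its log2 signal ranged from 7.37 through a median of 8.42 to 10.63 in tumors, against 12.50 through 12.89 to 13.68 in control livers. The highest tumor lay below the lowest control. The mean log2 ratio was -4.29 ± 1.06 (SD, n = 8; 95% interval -5.02 to -3.56; limma adjusted p = 9.33e-06), the 15th lowest of 14312 genes. Tumors spread more than controls, with SDs of 1.04 and 0.36. Tumor 7 kept the most signal, at a ratio of -2.17, followed by tumor 4 at -3.37. The other tumors lay between -5.45 and -4.18.

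Ugt2a3, whose human counterpart conjugates bile acids, had log2 signals of 9.79, 11.32 and 11.87 at the lowest, median and highest tumor, against 13.31, 13.56 and 13.96 in control livers. Tumors 1 and 6 had the lowest ratios, -3.86 and -3.98, and the other 6 tumors lay between -2.64 and -1.69. The mean log2 ratio was -2.57 ± 0.90 (SD, n = 8; 95% interval -3.18 to -1.95; limma adjusted p = 6.86e-05), a 5.92-fold lower signal.

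Ugt3a1 and Ugt3a2 are neighbours on chromosome 15. The human enzymes attach N-acetylglucosamine (UGT3A1) or glucose and xylose (UGT3A2) in place of glucuronate. Ugt3a1 had log2 signals of 8.58, 9.30 and 9.99 at the lowest, median and highest tumor, against 11.43, 12.17 and 12.64 in control livers. Its mean log2 ratio was -2.82 ± 0.63 (SD, n = 8; 95% interval -3.27 to -2.38; limma adjusted p = 6.63e-06), and it was lowest in tumor 2, at -3.94. Ugt3a2 had log2 signals of 9.98, 11.97 and 12.34 in tumors, against 13.88, 14.07 and 14.36 in control livers. Tumor 2 was again the lowest, with a ratio of -4.12, while the other tumors lay between -2.76 and -1.68. The mean log2 ratio of Ugt3a2 was -2.38 ± 0.81 (SD, n = 8; 95% interval -2.94 to -1.82; limma adjusted p = 6.00e-05). A second, dimmer probe of Ugt3a2 gave -2.05 ± 0.56 and was also lower (limma adjusted p over all tested probes 2.55e-05). The difference between Ugt3a1 and Ugt3a2 on the same arrays, -0.44 ± 0.64 (SD, n = 8), did not pass the exact sign-flip test (adjusted p = 0.094).

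**Figure D2:**
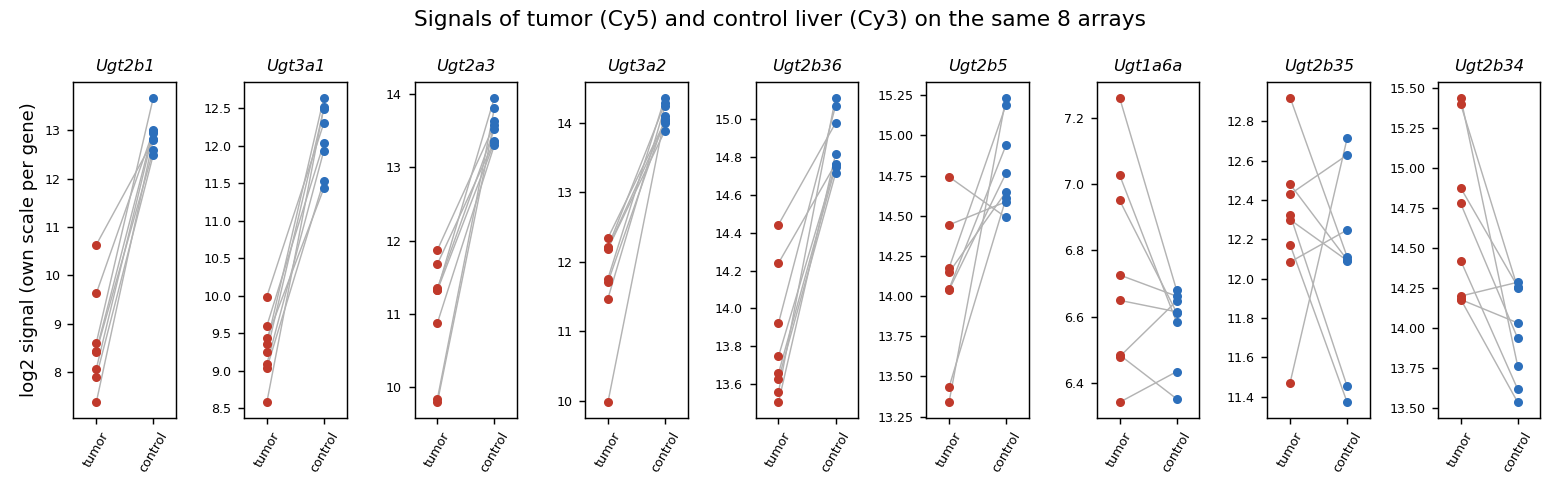
Log2 signal of tumor (left, red) and control liver (right, blue) for the 9 measured Ugt genes, each panel on its own y axis, with a line joining the channels of an array. The tumor and control points are separate for Ugt2b1, Ugt3a1, Ugt2a3, Ugt3a2 and Ugt2b36 and overlap for the other 4 genes.

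Ugt2b36 was the smallest of the called falls. Its log2 signal was 13.50, 13.70 and 14.44 at the lowest, median and highest tumor, against 14.71, 14.79 and 15.11 in control livers. The channels were separate, but the mean log2 ratio of -1.03 ± 0.35 (SD, n = 8; 95% interval -1.31 to -0.76; limma adjusted p = 1.21e-04) lay at the 2-fold limit. Without array 8 the ratio was -0.96, and without array 2 it was -0.99, so that the gene then missed the 2-fold limit and 4 Ugt genes were called lower. The other 4 stayed called whichever 1 array was left out.

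Ugt2b5 and Ugt2b34 had mean ratios of opposite sign within the 2-fold limit. Ugt2b5 had log2 signals of 13.34, 14.10 and 14.74 in tumors, against 14.49, 14.71 and 15.24 in control livers, and a mean log2 ratio of -0.76 ± 0.66 (SD, n = 8; 95% interval -1.23 to -0.30; limma adjusted p = 0.0114), below 0 on 7 arrays. Ugt2b34 had log2 signals of 14.18, 14.60 and 15.44 in tumors, against 13.54, 13.99 and 14.29 in control livers. Its mean log2 ratio was 0.72 ± 0.55 (SD, n = 8; 95% interval 0.33 to 1.12; limma adjusted p = 0.00675), above 0 on 7 arrays. Both passed the adjusted p and missed the 2-fold limit, and 53.8% of all genes passed the adjusted p alone. The channels overlapped for both. On array 8 Ugt2b34 stood at -0.09 and Ugt2b5 at -1.90, the lowest value of each.

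Ugt2b35 gave no change that could be told from 0. Its log2 signal was 11.47, 12.31 and 12.92 in tumors, against 11.37, 12.10 and 12.71 in control livers, and its mean log2 ratio was 0.18 ± 0.72 (SD, n = 8; 95% interval -0.32 to 0.68; limma adjusted p = 0.511). A second probe gave 0.27 ± 0.62. Array 8 was the lowest at -1.24, and tumors 1 to 3 lay between 0.80 and 0.87. With 1 array left out the mean ranged from 0.085 to 0.39, the highest without array 8 (limma adjusted p = 0.0625), and was not called.

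Ugt1a6a belongs to the Ugt1a genes, and the human UGT1A6 enzyme conjugates small phenols and serotonin. Its probe was dim, well above background in 7 tumors and 8 controls, with log2 signals of 6.34, 6.69 and 7.26 in tumors, against 6.35, 6.61 and 6.68 in control livers. The mean log2 ratio was 0.17 ± 0.26 (SD, n = 8; 95% interval -0.06 to 0.39; limma adjusted p = 0.187). A probe on the shared last exons would read all Ugt1a transcripts, and one on the first exon would not. The files do not place the Ugt1a probes within their genes, so which exon each reads was not tested. The mean log2 signal in control livers was 6.57 for the Ugt1a6a probe, against 16.02 for the brighter probe of Ugt1a6b.

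The genes differed from each other on the same arrays. Of the 36 pairs of measured Ugt genes, 29 passed a two-sided exact sign-flip test over the 8 arrays, adjusted over the pairs, with an adjusted p of 0.039 or less. The smallest p this test can give is 0.0078, which is 0.011 after adjustment. Pairs that hold Ugt1a6a, passing or not, and its place in the order below rest on a dim probe, whose ratio is limited by signal near background. Ugt2b1 was lower than each of the other 8 genes on all 8 arrays, by -1.47 ± 1.00 relative to Ugt3a1 (SD, n = 8; exact sign-flip test, adjusted p = 0.011). The order of the mean log2 ratios was Ugt2b1, Ugt3a1, Ugt2a3, Ugt3a2, Ugt2b36, Ugt2b5, Ugt1a6a, Ugt2b35 and Ugt2b34, from lowest to highest. Among neighbours in that order, Ugt3a1 and Ugt2a3 did not differ beyond their spread (Ugt2a3 minus Ugt3a1 0.26 ± 1.03, exact sign-flip test, adjusted p = 0.513). The same held for Ugt2a3 minus Ugt3a2 (-0.18 ± 1.18, exact test, adjusted p = 0.739), Ugt2b5 minus Ugt2b36 (0.27 ± 0.33, exact test, adjusted p = 0.073) and Ugt1a6a minus Ugt2b35 (-0.02 ± 0.81, exact test, adjusted p = 0.961). Ugt2b34 minus Ugt2b35 was 0.54 ± 0.54 (exact test, adjusted p = 0.066). The remaining pair that missed the threshold was Ugt1a6a and Ugt2b34 (-0.56 ± 0.75, exact test, adjusted p = 0.088). A missed threshold does not show that the ratios of a pair were equal.

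The Ugt2 genes lie in 1 cluster on chromosome 5, in the order Ugt2b34, Ugt2b1, Ugt2b35, Ugt2b36, Ugt2b5, Ugt2b37, Ugt2a3, Ugt2b38, Ugt2a1 and Ugt2a2. The largest difference between any 2 of the measured Ugt genes was between the first 2 of this row: Ugt2b1 minus Ugt2b34 was -5.01 ± 1.39 (SD, n = 8; below 0 on 8 of 8 arrays; exact sign-flip test, adjusted p = 0.011). Ugt2a3, called lower, lay between Ugt2b37 and Ugt2b38, which were not called. The ratios thus did not follow the order along the chromosome.

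**Figure D3:**
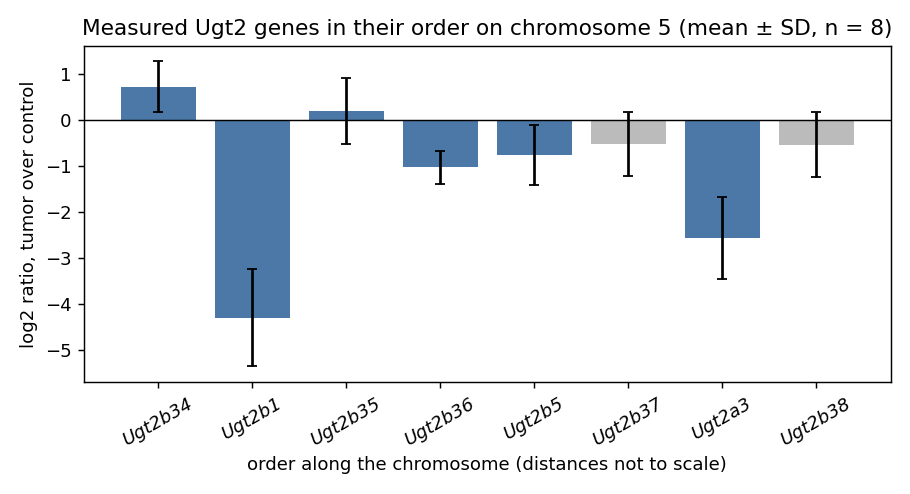
Mean log2 ratio of tumor over control liver ± SD (y axis, n = 8 arrays) for the measured Ugt2 genes in their order on chromosome 5 (x axis, distances not to scale); blue bars are the followed genes and grey bars the others. Ugt2b1 (-4.29) stands between Ugt2b34 (0.72) and Ugt2b35 (0.18).

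The promoters of these neighbours are shown because the 2 genes differ most. Sequences are from RefSeq on build GRCm38.p6, 250 bases before to 50 after the start of the gene, and 9 of the 10 Ugt genes had one; that of Ugt2b1 is at chr5:86926454-86926753 and that of Ugt2b34 at chr5:86906888-86907187, both on the minus strand.
Ugt2b1: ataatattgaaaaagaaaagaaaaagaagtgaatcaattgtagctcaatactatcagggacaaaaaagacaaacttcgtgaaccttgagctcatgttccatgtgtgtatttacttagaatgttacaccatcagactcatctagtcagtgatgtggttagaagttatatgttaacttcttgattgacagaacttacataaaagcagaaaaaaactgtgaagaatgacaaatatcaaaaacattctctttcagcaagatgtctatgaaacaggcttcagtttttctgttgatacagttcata
Ugt2b34: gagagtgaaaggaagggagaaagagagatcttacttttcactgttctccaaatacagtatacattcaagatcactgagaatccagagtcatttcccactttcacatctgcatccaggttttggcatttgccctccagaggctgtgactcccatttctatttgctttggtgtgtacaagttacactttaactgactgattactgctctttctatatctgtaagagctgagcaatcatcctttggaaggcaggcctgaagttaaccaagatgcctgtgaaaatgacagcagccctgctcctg
The pair shared 49.1% of aligned bases. Promoters of Ugt genes on different chromosomes gave like shares, such as 49.8% for Ugt1a10 and Ugt2b1 and 44.6% for Ugt1a6a and Ugt2b1.

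Of 12 other Ugt genes, 6 had a probe and 4 were tested, and none of the 4 was called. Ugt2b37 and Ugt2b38 had log2 ratios of -0.52 ± 0.70 and -0.54 ± 0.71 (SD, n = 8; limma adjusted p = 0.0684 and 0.0658). Ugt1a6b, a near copy of Ugt1a6a in the mouse, had -0.27 ± 0.59 (SD, n = 8; limma adjusted p = 0.243), with -0.37 ± 0.55 at a second probe. Ugt2a1 was well above background in 0 tumors and 1 control, and Ugt8a, whose enzyme adds galactose to lipids of myelin, in 2 tumors and 0 controls.

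Ugt2b5, Ugt2b37 and Ugt2b38 stood high and low on the same arrays. Tumor 3 was the highest in each, at 0.25, 0.61 and 0.60, and tumor 8 the lowest, at -1.90, -1.80 and -1.88. The pattern was not particular to these 3 genes. Ugt2b34 and Ugt2b36 were also highest in tumor 3, at 1.68 and -0.52, and lowest in tumor 8, at -0.09 and -1.56. On array 8, whose control channel held the muscle markers, the control signal of each of these genes was the highest of all controls. The tumor signal of array 8 was the lowest tumor signal for Ugt2b5, Ugt2b37 and Ugt2b38, but not for Ugt2b34 and Ugt2b36. Within arrays, Ugt2b37 minus Ugt2b38 was 0.02 ± 0.10 (SD, n = 8), with no array past 0.164 in size, and Ugt2b5 minus Ugt2b38 was -0.23 ± 0.16. Ugt2b37 minus Ugt2b5 was 0.24 ± 0.21, and Ugt2b37 minus Ugt2b34 was -1.24 with a like SD of 0.24. These differences were picked after their values were seen and were not tested. The promoters of Ugt2b5, Ugt2b37 and Ugt2b38 are near copies. Of aligned bases, 86.9% were identical between Ugt2b37 and Ugt2b38, 84.2% between Ugt2b5 and Ugt2b38, and 76.2% between Ugt2b5 and Ugt2b37. The share was 61.4% between Ugt2b5 and Ugt2b36 and 50.3% between Ugt2b34 and Ugt2b37. Whether a probe of Ugt2b5, Ugt2b37 or Ugt2b38 also reads RNA of its near copies was not tested, and the values of these 3 genes are uncertain to that extent.

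The promoters of Ugt2b5, at chr5:87140291-87140590, and Ugt2b38, at chr5:87424154-87424453, both on the minus strand, are shown to let the likeness be seen. Capitals mark the 39 bases of each that have no identical partner in the alignment.
Ugt2b5: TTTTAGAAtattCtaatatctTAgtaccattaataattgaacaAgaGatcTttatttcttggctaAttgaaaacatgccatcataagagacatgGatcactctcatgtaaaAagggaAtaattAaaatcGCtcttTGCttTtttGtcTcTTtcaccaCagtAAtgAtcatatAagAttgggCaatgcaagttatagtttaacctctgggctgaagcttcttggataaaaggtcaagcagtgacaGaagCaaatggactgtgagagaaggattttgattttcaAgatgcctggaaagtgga
Ugt2b38: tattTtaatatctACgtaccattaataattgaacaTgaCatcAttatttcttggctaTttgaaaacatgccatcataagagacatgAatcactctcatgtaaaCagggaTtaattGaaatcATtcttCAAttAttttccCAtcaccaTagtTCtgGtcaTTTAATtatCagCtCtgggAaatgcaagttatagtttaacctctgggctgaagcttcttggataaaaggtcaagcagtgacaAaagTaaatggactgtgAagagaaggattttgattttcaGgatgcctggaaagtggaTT

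**Figure D4:**
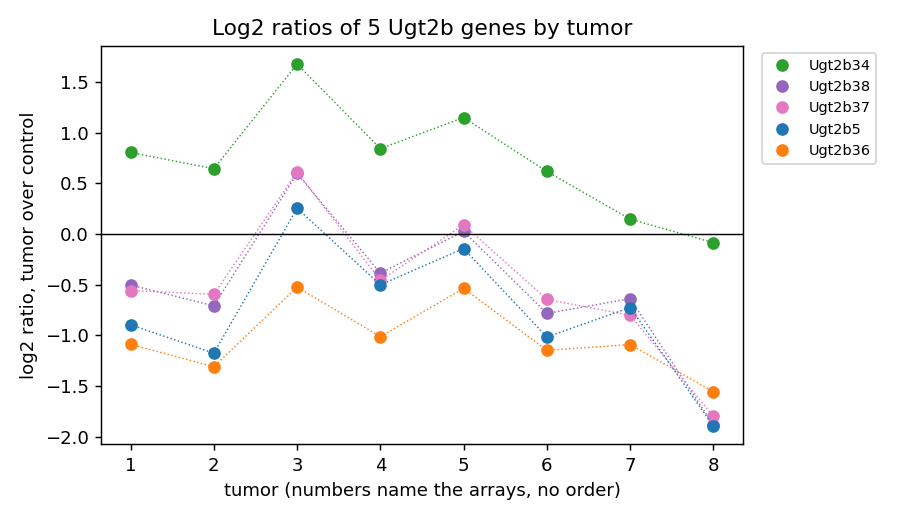
Log2 ratio of tumor over control liver (y axis) of 5 Ugt2b genes on each of the 8 arrays (x axis, numbers name the tumors and have no order; dotted lines only join points of 1 gene). Tumor 3 is highest and tumor 8 lowest in all 5 genes, and the points of Ugt2b37, Ugt2b38 and Ugt2b5 lie close together.

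The supply of the sugar was set beside the transferases. Over all genes tested, 5.94% were called lower and 9.54% higher, and the counts of this and the following lists stand beside these shares. Of 11 genes that make, carry or remove UDP-glucuronate or split glucuronides, 3 rose and none fell, and the median log2 ratio was -0.08. Ugdh, which oxidises UDP-glucose to UDP-glucuronate, rose by 1.04 ± 0.37 on the log2 scale (SD, n = 8; limma adjusted p = 1.37e-04). Gusb, the lysosomal enzyme that splits glucuronides, rose by 1.57 ± 0.89 (limma adjusted p = 0.00112). Uxs1, which turns UDP-glucuronate into UDP-xylose, rose by 1.13 ± 0.65 (limma adjusted p = 0.00135). Ugp2, which makes UDP-glucose, had 0.09 ± 0.68 (limma adjusted p = 0.75). Ugdh missed the 2-fold limit without array 3 (0.98) and Uxs1 without array 1 (0.98).

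Of 12 transporters that carry glucuronides and other organic anions, 4 fell and 3 rose, and the median was -0.64. The falls were in uptake carriers of the hepatocyte, Slco1a1 (-5.57 ± 0.87), Slco1b2 (-3.60 ± 1.63), Slco1a4 (-2.18 ± 1.09) and Slco2b1 (-2.13 ± 0.50). The rises were in export pumps, Abcc4 (3.05 ± 1.21), Abcc5 (2.50 ± 0.53) and Abcc1 (1.55 ± 0.83). Slco1a1 was well above background in 1 tumor, so its ratio rests on a tumor signal near background. The pumps best known for bilirubin glucuronides were not called: Abcc2, of the bile canaliculus, had 0.02 ± 0.58 (limma adjusted p = 0.924) and Abcc3, of the blood side, -0.38 ± 1.37 (limma adjusted p = 0.466). Without array 8 these 2 ratios were -0.09 and 0.02.

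Of 15 genes of heme synthesis and bilirubin formation, 4 fell and none rose, and the median was -0.27. All 4 make heme: Alas2 (-2.14 ± 0.59), which serves red cells, Cpox (-1.63 ± 0.94), Alad (-1.38 ± 0.35) and Fech (-1.23 ± 0.25). Hmox1, which opens the heme ring on the way to bilirubin, had 0.08 ± 0.90 (limma adjusted p = 0.813).

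Of 22 tested genes of regulators known to act on Ugt genes, of 23 listed, 3 fell and none rose, and the median was -0.48. Nr1i3, the receptor CAR that drugs use to induce Ugt genes, fell by 2.41 ± 1.05 on the log2 scale (SD, n = 8; limma adjusted p = 2.42e-04) and was below 0 on all 8 arrays. Foxa1, a pioneer factor of liver, fell by 1.43 ± 1.18 (limma adjusted p = 0.00811). Bcl6, a repressor under growth hormone control, fell by 1.31 ± 0.59 (limma adjusted p = 3.50e-04). Ppara had -0.99 ± 0.80 (limma adjusted p = 0.00776), just inside the 2-fold limit, and was called lower without array 4 (-1.17), array 5 (-1.03) or array 6 (-1.07). Hnf4a had -0.29 ± 0.30 (limma adjusted p = 0.0464), and Nr1i2, the receptor PXR, had 0.43 ± 0.38 (limma adjusted p = 0.0177). Ahr had -0.36 ± 0.94 (limma adjusted p = 0.317) and Nfe2l2 had 0.45 ± 1.24 (limma adjusted p = 0.337). Without array 8, Nfe2l2 had 0.84, and in row 1 of the slide alone it had 1.09 and was called higher (limma adjusted p = 0.00982). Without array 4, 6 regulators were called lower, and without array 5, 5.

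Other routes of conjugation were counted by the same call, which took 5.94% of all genes as lower and 9.54% as higher. Of 16 tested sulfation genes, of 24 listed, 5 fell and 1 rose, and the median was 0.13. The lowest were Sult2a8 (-6.35 ± 0.77), Sult5a1 (-3.42 ± 1.13), Sult2a7 (-2.69 ± 1.89) and Sult1b1 (-2.22 ± 0.49), and Sult2b1 was higher (1.84 ± 0.92). Of 17 tested genes of methyl, acetyl and acyl conjugation, of 18 listed, 10 fell and none rose, and the median was -1.39. The lowest were Keg1 (-2.77 ± 0.94), the bile acid ligase Slc27a5 (-2.66 ± 0.68), Glyat (-2.18 ± 0.45), which adds glycine to acyl groups, and Acsm5 (-2.11 ± 0.39). The sulfation genes include near-identical copies, such as those of the Sult2a family, whose probes may read each other's RNA.

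**Figure D5:**
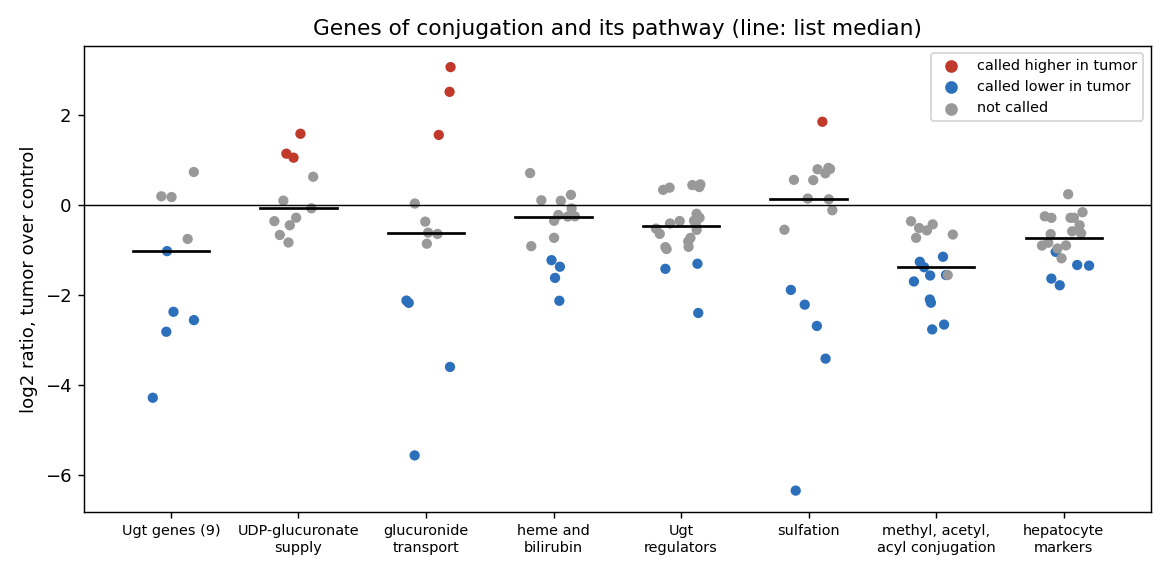
Log2 ratio of tumor over control liver (y axis) of each tested gene in 8 lists (x axis), with called rises in red, called falls in blue, other genes in grey and the list median as a black line. The median of the 9 Ugt genes is -1.03 and that of the list of methyl, acetyl and acyl conjugation -1.39.

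Markers of cell types differed between the channels as well, where 5.94% of all genes were called lower and 9.54% higher. Of 20 hepatocyte markers, 5 fell and none rose, and the median was -0.75. The lowest were the secreted protein Serpina1a (-1.79 ± 0.47), the urea cycle enzyme Cps1 (-1.64 ± 1.27) and the lipoprotein gene Apoc3 (-1.36 ± 0.33), and Alb had -0.29 ± 1.04 (limma adjusted p = 0.460). Their summed signal was 1497033 to 1817057 in tumors, against 2291333 to 2913566 in control livers, with 19 to 20 of 20 well above background in both channels. Without array 8, 8 hepatocyte markers were called lower.

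Of 10 stellate and fibroblast markers, 6 were higher, led by the collagens Col1a1 (3.65 ± 1.20), Col1a2 (3.00 ± 1.21) and Col3a1 (2.47 ± 1.43), and their sum was 17548 to 98390 in tumors, against 35683 to 48278 in control livers. The lowest tumor sum is that of array 8, and the tumors of arrays 1 to 7 had 52642 to 98390, all above every control. Of 8 tested bile duct markers, of 9 listed, 3 were higher (Spp1 3.34 ± 1.04, Cldn7 2.28 ± 0.74, Sox9 1.53 ± 1.49), with sums of 3155 to 101585 in tumors, against 2212 to 7267 in control livers. Here too array 8 is the lowest, and the tumors of arrays 1 to 7 had 10558 to 101585, above every control. Spp1 was the brightest of this list in tumors, at a mean log2 signal of 14.49 against 11.09 for Cldn7, so the tumor sums rest largely on it. The median log2 signal of the list was higher in tumor than in control on arrays 1, 3, 4, 5 and 6, and lower on arrays 2, 7 and 8. The bile duct markers not called had log2 ratios from -0.86 (Cftr, below 0 on all 8 arrays) to 0.95 (Epcam). Of 10 endothelial markers, 3 were lower, Clec4g (-3.13 ± 1.06), Oit3 (-2.80 ± 0.67) and Stab2 (-1.44 ± 0.58). None of the others was called, and their log2 ratios lay on both sides of 0, from -0.84 to 0.49. The list median was -0.33. The endothelial sums were 8240 to 14591 in tumors, against 22104 to 28399 in control livers. Clec4g and Stab2 were the brightest of the list in control livers, so the sums rest mostly on these genes. Of 9 tested myeloid markers, of 10 listed, Cd14 was higher (4.61 ± 0.79) and 4 were lower, among them Clec4f (-3.33 ± 1.11), Marco (-2.83 ± 2.22) and Cd5l (-2.66 ± 1.52), with sums of 26084 to 65095 in tumors, against 28425 to 70204 in control livers. The myeloid markers not called, Csf1r, Itgam, Adgre1 and Lyz2, had log2 ratios from 0.07 to 0.75, and the median of the myeloid list was 0.07. Of 8 tested lymphocyte markers, of 10 listed, Jchain (1.89 ± 0.68) and Ptprc (1.12 ± 0.64) were higher, with sums of 7465 to 18947 in tumors, against 6796 to 11217 in control livers. Of 10 tested skeletal muscle markers, of 26 listed, Neb was lower (-1.38 ± 0.85) and none was higher. Without array 8, 2 muscle markers and 2 myeloid markers were called higher. The part of these shifts in the Ugt ratios was not tested. The hepatocyte markers had log2 ratios from -1.79 to 0.23. Ugt2b1, Ugt3a1, Ugt2a3 and Ugt3a2 lay below that range, from -4.29 to -2.38. Ugt2b36, Ugt2b5, Ugt1a6a and Ugt2b35 lay within it, from -1.03 to 0.18, and Ugt2b34 above it, at 0.72. What this means for the share of hepatocytes was not tested.

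The arrays lie in 2 rows of the slide, 4 in each. Ugt2b1 had a log2 ratio of -4.40 in row 1 and -4.18 in row 2, Ugt3a1 -3.04 and -2.60, Ugt2a3 -2.63 and -2.51, and Ugt3a2 -2.78 and -1.98. All 4 were called in each row alone. Ugt2b36 had -0.98 in row 1 and -1.08 in row 2, and was called in row 2 alone. Ugt2b5 had -0.58 and -0.95, Ugt2b34 had 0.99 and 0.46, and Ugt2b35 had 0.58 and -0.21 in rows 1 and 2, none of them called in either row.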

How the data were processed

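Each array compared 1 tumor (Cy5, n = 8) with control liver (Cy3). The deposited scanner files hold, per the file headers, the median signal and background of each spot as intensity, flags of 0 or 1 per spot, and processed signals, also intensity. The log10 ratio of Cy5 to Cy3 in the deposited files, 0 at 24.2% to 30.4% of spots, was not used for the results. Scans were read with Agilent Feature Extraction, as version 10.9 per the submitters' processing notes and 10.9.1.1 per the file headers. Mean signals had been planned but are not in the files used, so median signals were taken. Log2 ratios were computed from the deposited intensities.

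Signals were corrected with normexp (offset 50) and normalized by loess within arrays, with control and outlier spots at weight 0 (limma 3.58.1 in R 4.3.3). Channel signals were taken after loess and Aquantile scaling. Probes had to be well above background in 1 of the channels on 4 or more arrays to be tested, and a gene was its brightest tested probe. Of 55681 probes, 26592 were named, through the accession in the annotation of GRCm38.p6 or else by the name in the files, and 29089 had no symbol. For each gene, limma (lmFit, eBayes) tested whether the mean log2 ratio differed from 0, with Benjamini-Hochberg adjustment over all genes. Differences between genes were tested by exact sign flips over arrays, and promoters were aligned with Biopython 1.88.

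The genes, lists and tests were chosen with earlier results of these data known. Named from each list were up to 4 called genes in each direction with the largest ratios (up to 3 for marker lists), and 14 genes whether called or not, 1 of which is not reported here. The 8 arrays were taken as independent; a shared control would leave the control's spread out of the tests, and the number of arrays limits the precision. Alternatives changed the background correction, signal, normalization, filter, probe rule, variance model, weights, slide row and arrays used.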

Additional observations from a re-analysis of the deposited data

Results flagged for a closer look

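Among 69 named genes, 6 had 1 array far from the other 7, by a gap to the nearest of more than Dixon's 95% critical value for 8 arrays, taken as a share of the whole range. Chance alone flags about 1 gene in 20. Of the Ugt genes this held for Ugt3a2, whose ratio in tumor 2 was -4.12, against -2.76 to -1.68 in the other tumors (gap 0.556 of the range). Nfe2l2 stood at -2.32 on array 8, against 0.13 to 1.55 elsewhere (0.632). Spp1 stood at 1.08 on array 8, against 2.85 to 4.16 (0.575), and Sult1b1 at -1.19 on array 8, against -2.79 to -2.08 (0.560). On array 4, Sult2a8 stood at -4.77, against -7.03 to -5.99 (0.539), and Bcl6 at -2.62, against -1.56 to -0.70 (0.550).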

How the results depend on the processing

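Under 23 alternatives, Ugt2b1, Ugt3a1, Ugt2a3 and Ugt3a2 stayed called lower, with log2 ratios of -4.66 to -4.12, -3.04 to -2.60, -2.85 to -2.36 and -2.78 to -1.98. Ugt2b36 missed the 2-fold limit with the processed signals (-0.96, limma adjusted p = 4.18e-04), with array weights (-0.93), in row 1 alone (-0.98) and without arrays 7 and 8 (-0.94). With each array left out in turn it ranged from -1.11 to -0.96, and 4 to 5 Ugt genes were called lower. Ugt2b35 was -0.21 in row 2 alone; Ugt2b5, Ugt2b34 and Ugt1a6a were not called under any alternative. Genes called lower over the array numbered 1531 with the processed signals, against 850, and genes called higher numbered 849 in row 2 alone, against 1366; leaving out each array gave 836 to 902 lower and 1293 to 1533 higher. In row 2 alone, 4 pathway genes were called higher, against 7, where 849 genes over the array were called higher and 709 lower. These rows hold 4 arrays each; the cause of the other shifts was not tested. Of 36 pairs, 28 to 30 passed. Genes near 0 changed sign: Abcc2 with median centring (-0.021), array weights (-0.19), arrays 1 and 2 averaged (-0.059) and without arrays 7 and 8 (-0.10); Hmox1 with array weights (-0.19), in row 1 alone (-0.066) and without arrays 7 and 8 (-0.30); Ugp2 with array weights (-0.16), in row 1 alone (-0.020) and without arrays 7 and 8 (-0.17). Abcc3 was 0.085 with array weights and 0.23 without arrays 7 and 8, Alb was 0.11 in row 1 alone and 0.18 without arrays 7 and 8, and Nfe2l2 was -0.19 in row 2 alone and 1.09, called higher, in row 1 alone. With 1 array left out, Abcc2 ranged from -0.091 to 0.14, Hmox1 from -0.15 to 0.23, Ugp2 from -0.048 to 0.19 and Abcc3 from -0.57 to 0.020. Hepatocyte markers called lower numbered 8 with median centring and 3 in row 2 alone, against 5, stellate markers called higher 3 in row 2 alone, against 6, and bile duct markers called higher 5 with array weights, against 3. Genes of UDP-glucuronate supply called higher numbered 0 in row 2 alone, against 3, and sulfation genes called higher 0 to 4, against 1. Ugdh missed the 2-fold limit with the processed signals (0.97), median centring (0.98), array weights (0.99) and in row 2 alone (0.94). Sox9 missed the adjusted p with the processed signals (1.41, limma adjusted p = 0.0712) and in row 2 alone (1.02). Ppara was called lower with median centring (-1.05), the mean of all probes (-1.05), the processed signals (-1.03) and both other background corrections. The median of all genes lay between -0.05 and 0.06 throughout. Tumor and control were compared within each array, and the arrays form 1 group. Whether the control channels hold RNA of separate animals is not given. Ratios of dim probes, such as that of Ugt1a6a, are limited by signal near background.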

Other observations

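The 2 probes of Ugt1a10 gave the same mean ratio with different patterns over the arrays. The brighter probe had 0.66 ± 1.59 (SD, n = 8), from -1.57 on array 3 to 2.39 on array 2, and its control channel ranged from 8.34 to 12.19 on the log2 scale. The dimmer probe had 0.66 ± 0.65 (SD, n = 8), was above 0 on all 8 arrays, and was highest on array 3, at 1.97, where the brighter probe was lowest. The mean log2 signal of the dimmer probe was 7.19 in tumors and 6.53 in control livers. It was well above background in 7 tumors and 7 controls, so its ratios are limited by signal near background. Within arrays, Ugt2b34 minus the dimmer Ugt1a10 probe was 0.06 ± 0.22 (SD, n = 8), picked after its values were seen and given with no test.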
